A study of Arabidopsis thaliana with 12 samples.

Results

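The transcripts described here are those of 3 nuclear genes of the photosystem II side of photosynthesis: the small subunits PSBW (AT2G30570) and PSBY (AT1G67740), and LHB1B2 (AT2G34420) of the light-harvesting antenna LHCII. They were taken by name, with earlier results of these data known, as genes whose probe carried 1 gene symbol in the platform annotation, and they are 3 of the 689 genes measured through such a probe. Total RNA was measured on 12 expression arrays of Arabidopsis thaliana, 6 of the psan mutant and 6 of wild type (WT), both in the ecotype Columbia 0. The psan mutant lacks PSI-N, a lumen-side subunit of photosystem I encoded by PSAN (AT5G64040). Tissue, age, growth conditions and the kind of mutation are unstated in the sources used here. The labels do not tie the numbered samples to different plants, and p-values therefore cover the spread between arrays alone, possibly a technical one.

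Photosystem II is the complex of the thylakoid membrane that takes electrons from water, and LHCII is its main antenna, made of chlorophyll a/b-binding proteins. PSBW encodes a single-helix membrane protein that helps hold the antenna and the photosystem II core together as a supercomplex. PSBY encodes a precursor that is cut into a pair of small membrane proteins, found at the edge of the core near cytochrome b559. LHB1B2, also listed as LHCB1.5, encodes one of the Lhcb1 proteins of the trimeric antenna. Part of LHCII can move between photosystem II and photosystem I as the light changes.

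PSAN itself checked the labels. Its deposited intensity was 0.176 ± 0.0697 in psan and 6.30 ± 1.27 in WT (SD, n = 6 each), and the highest psan array, at 0.243, lay below the lowest WT array, at 4.40. The limma log2 fold change of psan minus WT was -5.46 (adjusted p = 2.15e-06), and it also passed with averaged pairs (adjusted p = 0.0327). Without WT arrays 1 and 2 it was -5.41 (adjusted p = 3.51e-05).

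The 3439 probes had 1 intensity each per array, on a linear scale with a floor at 0 and a highest value of 100 on every array. Whether that top came from scaling or from a cut-off is unstated in the sources used here, so deposited intensities are in arbitrary units. A pair of WT arrays, numbers 1 and 2, stood apart from the rest. They had 14.5% and 15.1% of their probes at 0, against 6.19% to 10.8% on the psan arrays and 4.68% to 6.25% on WT arrays 3 to 6. Their median log2 intensities above 0 were -2.85 and -2.88, against -1.89 to -1.68 on the psan arrays and -2.32 to -2.27 on the other WT arrays. Within both groups, numbers 1 and 2, 3 and 4, and 5 and 6 tended to deviate from the group mean together. Their r over probes ran from 0.0331 to 0.601 in these 6 pairs, and was at most 0.0928 in the other 24 combinations. The 0.0331 belonged to psan arrays 1 and 2, which thus hardly deviated together, while the other pairs had 0.401 or more. All psan combinations outside the pairs had a negative r. Numbers 1 and 2, 3 and 4, and 5 and 6 are called pairs here, and may be repeat measurements of 1 sample. The limma comparison of each gene named for its change, or lack of one, is therefore also given with the pairs averaged and without WT arrays 1 and 2.

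All 3 transcripts were measured above 0 on all 12 arrays, and none of them differed between psan and WT at a limma adjusted p under 0.05. Unadjusted, the limma p was 0.797 for PSBW, 0.509 for PSBY and 0.326 for LHB1B2, so none was under 0.05 in that fit. Other settings, given at the end, brought the unadjusted p under 0.05 for each gene, but not the adjusted one. Over all probes, 1010 of 3376 passed at an adjusted p under 0.05 over 12 arrays, or 29.9%, and 4.30% passed with averaged pairs. For none of the 3 genes did the deposited intensities of the groups separate without overlap, as they did for 19.9% of all probes tested. What varied was the single array or pair. On WT arrays 1 and 2 the LHB1B2 signal stood far above that of every other array, the deposited intensity of PSBY was higher there than on any other array, and that of PSBW was higher than on the other WT arrays. After normalisation PSBY was highest on psan array 4, at 2.02 on the log2 scale, against 1.885 and 1.995 on WT arrays 1 and 2. Within psan, PSBW differed between pairs of arrays, PSBY differed within pairs, and LHB1B2 stayed in a narrow range.

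**Figure D1:**
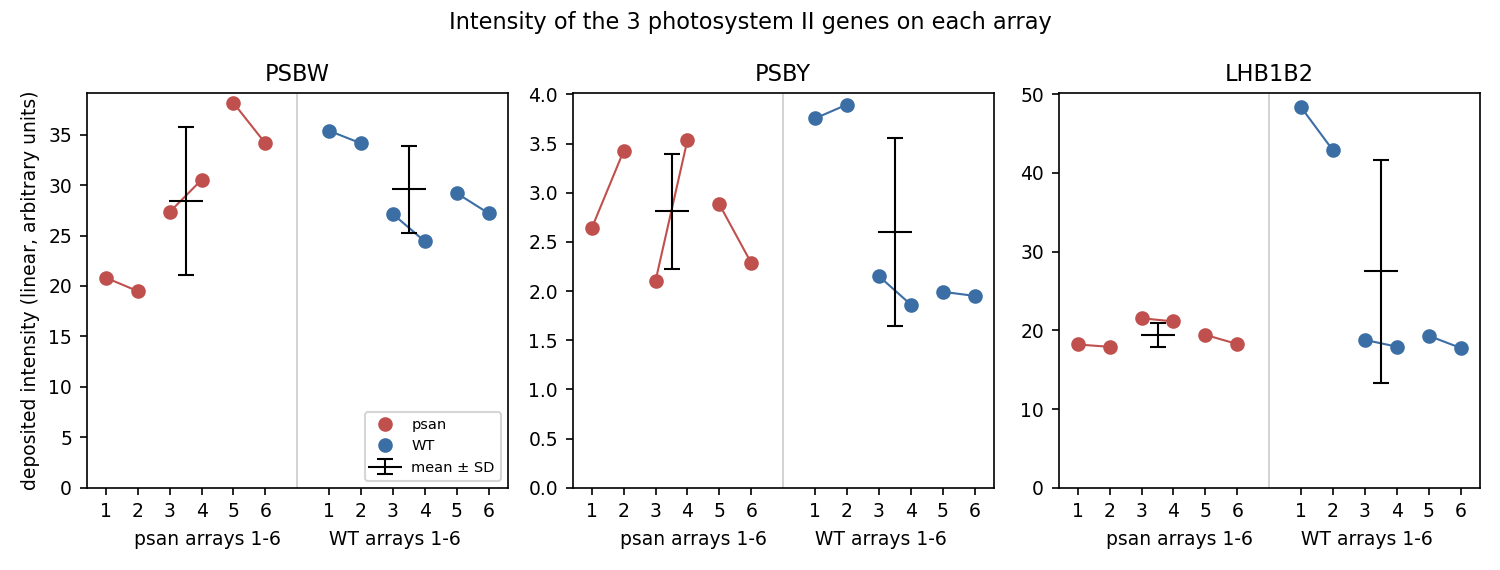
Deposited intensity (linear scale, arbitrary units) of PSBW, PSBY and LHB1B2 on psan arrays 1 to 6 and WT arrays 1 to 6, with lines joining the arrays of a pair and bars for the mean ± SD of 6 arrays. LHB1B2 reached 48.3 and 42.9 on WT arrays 1 and 2 and lay between 17.8 and 21.5 on the other arrays of both groups.

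PSBW, the subunit that ties antenna to core, was among the brightest signals of both groups. Its intensity on psan arrays 1 to 6 was 20.8, 19.5, 27.3, 30.5, 38.1 and 34.1. On WT arrays 1 to 6 it was 35.4, 34.1, 27.1, 24.4, 29.2 and 27.2. The psan arrays thus held both the lowest values (arrays 1 and 2) and the highest one (array 5), and the WT range lay inside the psan range. The means were 28.4 ± 7.35 in psan and 29.6 ± 4.31 in WT (SD, n = 6 each). The log2 fold change of psan minus WT after quantile normalisation was -0.058 ± 0.22 (SE), and its 95% confidence interval ran from -0.53 to 0.42 (limma adjusted p = 0.873). That interval runs from 0.691-fold to 1.34-fold. With averaged pairs it widened to -0.91 to 0.80 (adjusted p = 0.936). An exact permutation test of the deposited log2 values, two-sided, gave p = 0.654.

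The sign of the PSBW difference varied with the arrays used. Without WT arrays 1 and 2 the log2 fold change was 0.042 (adjusted p = 0.912), and without psan arrays 1 and 2 it was 0.22 (adjusted p = 0.413). The arrays of a pair lay close together, the brighter at 1.04 to 1.12 times the dimmer over the 6 pairs. The pair means differed more, at 20.2, 28.9 and 36.1 in psan and 34.8, 25.8 and 28.2 in WT. After normalisation, psan arrays 1 and 2 lay 0.80 below psan arrays 3 to 6 on the log2 scale. Of the 2243 probes that were above 0 on every array, 12.04% lay lower still on those 2 arrays. Of the 340 such probes in the brightest 10%, 4.41% did.

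PSBY, the gene of the cut precursor, showed the largest fold differences between arrays of the same pair. Its intensity on psan arrays 1 to 6 was 2.64, 3.43, 2.11, 3.54, 2.88 and 2.29. On WT arrays 1 to 6 it was 3.76, 3.90, 2.15, 1.86, 1.99 and 1.95. The psan arrays spread over the space between a high WT pair (arrays 1 and 2) and a low set of 4 WT arrays, so the groups overlapped. The means were 2.81 ± 0.586 in psan and 2.60 ± 0.954 in WT (SD, n = 6 each). The normalised log2 fold change was 0.18 ± 0.27 (SE), and its 95% confidence interval ran from -0.40 to 0.76, or 0.758-fold to 1.70-fold (limma adjusted p = 0.656). With averaged pairs the interval was -0.72 to 1.08 (adjusted p = 0.801), and p was 0.496 in the two-sided exact permutation test of the deposited log2 values.

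Without WT arrays 1 and 2 the PSBY log2 fold change was 0.48, with a 95% confidence interval from 0.00064 to 0.96. Its limma adjusted p was 0.117, and 30.2% of all probes passed in that fit. The deposited intensity then ran from 2.11 to 3.54 in psan and from 1.86 to 2.15 in WT, with 5 of 6 psan arrays above the highest of the 4 WT arrays. Psan arrays 3 and 4 differed 1.68-fold from each other, psan arrays 1 and 2 differed 1.30-fold and psan arrays 5 and 6 differed 1.26-fold. In WT the members of a pair differed 1.02-fold to 1.16-fold.

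LHB1B2, the antenna gene, had the smallest spread of the 3 genes in psan and the largest in WT, both on the log2 scale. Its intensity on psan arrays 1 to 6 was 18.2, 17.9, 21.5, 21.1, 19.4 and 18.3. On WT arrays 1 to 6 it was 48.3, 42.9, 18.8, 17.9, 19.3 and 17.8. WT arrays 3 to 6 lay within or just under the psan range, and the other 2 WT arrays lay far above it. The means were 19.4 ± 1.58 in psan and 27.5 ± 14.1 in WT (SD, n = 6 each), while the medians were 18.8 in psan and 19.1 in WT. The normalised log2 fold change was -0.32 ± 0.31 (SE), and its 95% confidence interval ran from -0.99 to 0.36, or 0.502-fold to 1.28-fold (limma adjusted p = 0.483). With averaged pairs the interval was -1.45 to 0.81 (adjusted p = 0.714). By the exact permutation test of the deposited log2 values, two-sided, p was 0.381.

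The LHB1B2 difference turned its sign without WT arrays 1 and 2. It was then 0.16 on the log2 scale, with a 95% confidence interval from -0.21 to 0.53 and a limma adjusted p of 0.503. On the deposited values it was 0.070 without those arrays, a setting chosen after seeing the data. WT arrays 1 and 2 lay above WT arrays 3 to 6 by 1.42 on the normalised log2 scale, or 2.67-fold, and by 1.30 on the deposited one, or 2.47-fold. Of the 2243 probes above 0 throughout, 7.58% showed a larger excess on this pair. In the brightest 10% of probes, 6 of 340 did.

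The shift of WT arrays 1 and 2 against WT arrays 3 to 6 was not equal for the 3 genes. It was 0.26 for PSBW, 0.96 for PSBY and 1.42 for LHB1B2 on the normalised log2 scale, against a median of -0.081 over the brightest 10% of probes. The low medians and the many zeros of these arrays, given above, moved with these values, and their part in them was not tested. As the arrays measure bulk RNA, a change in the cells sampled and a change in RNA per cell cannot be told apart.

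**Figure D2:**
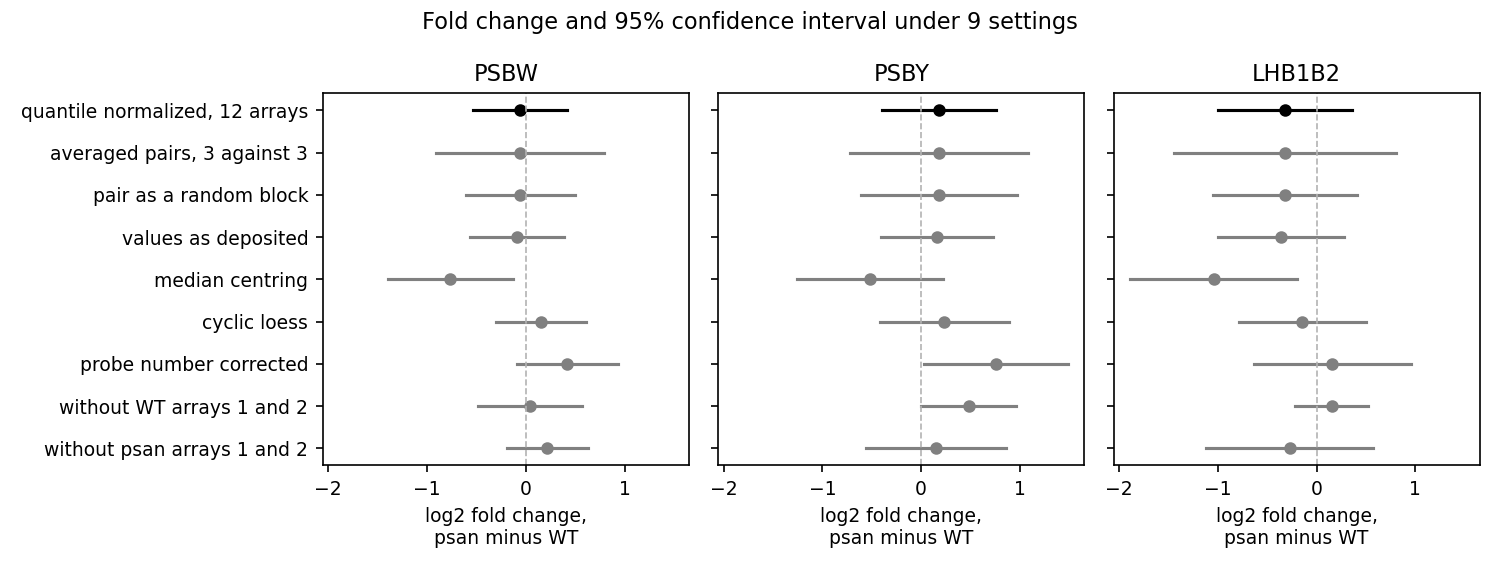
Log2 fold change of psan minus WT (points) with its 95% confidence interval (lines) for each gene under 9 settings, with a dashed line at 0. None of these values passed at an adjusted p under 0.05, the lowest being 0.0620 for LHB1B2 and 0.0645 for PSBW, both with median centring.

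The size of each difference depended on how the arrays were scaled. On the values as deposited, the log2 fold changes were -0.088 for PSBW, 0.16 for PSBY and -0.36 for LHB1B2, close to the normalised ones. Over all probes the deposited median was 0.46, and in the brightest 10%, which hold all 3 genes, it was 0.018. Median centring takes the difference of the array medians, -1.81 in psan and -2.48 in WT, from every probe alike. It gave -0.76 for PSBW (adjusted p = 0.0645), -0.52 for PSBY (adjusted p = 0.277) and -1.04 for LHB1B2 (adjusted p = 0.0620). Cyclic loess, which follows brightness, gave 0.15 for PSBW, 0.23 for PSBY and -0.14 for LHB1B2.

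The fold changes also followed the probe number. In blocks of 288 numbers split into 24 runs of 12, the median of a run ranged from -0.75 to 0.58. PSBW and LHB1B2 fell in the same run, where the median of the other 134 probes was -0.41, with 6 called higher and 35 called lower in psan. PSBY fell in a run with a median of -0.62 over 143 other probes, of which 4 were called higher and 46 lower. A correction then removed the effects of the run and of the place within the run from each array. PSBW and LHB1B2 share both, so they took the same correction. The log2 fold changes were then 0.42 for PSBW (adjusted p = 0.213), 0.76 for PSBY (adjusted p = 0.119) and 0.16 for LHB1B2 (adjusted p = 0.790).

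**Figure D3:**
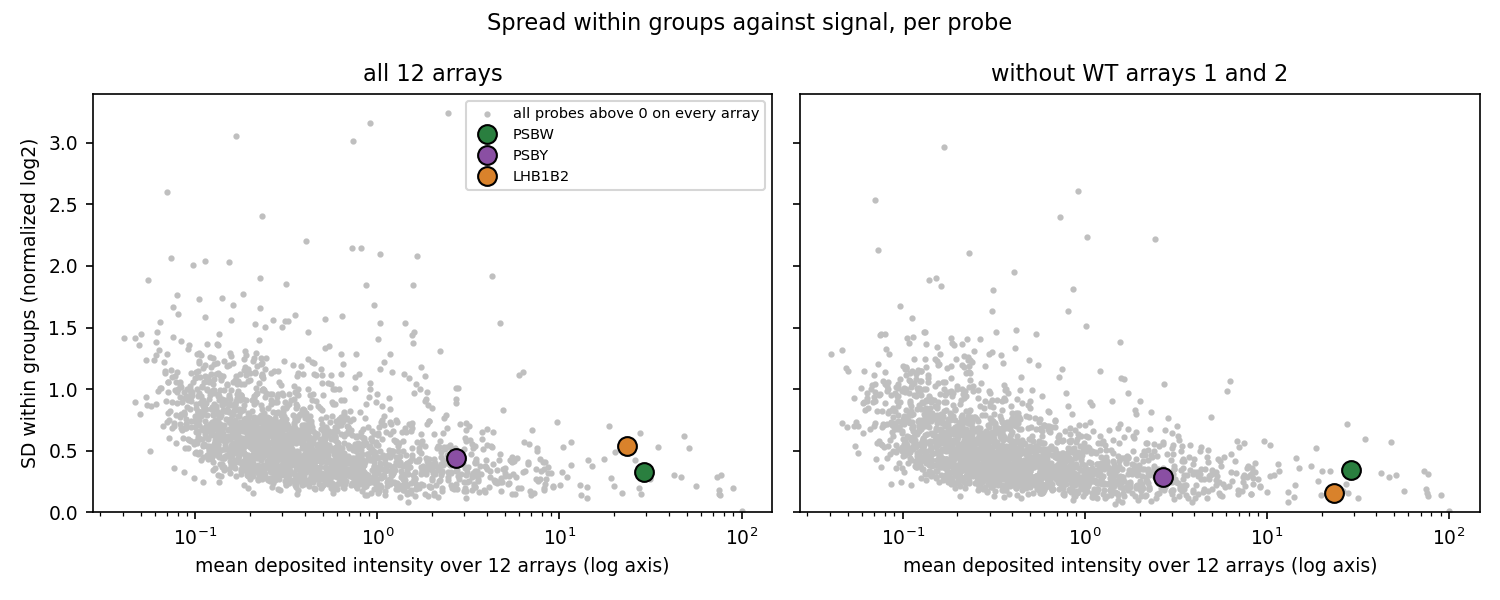
Pooled SD within groups of the normalised log2 signal against the mean deposited intensity (log axis) for the 2243 probes above 0 on every array, over all 12 arrays and without WT arrays 1 and 2. The SD of LHB1B2 was 0.54 over 12 arrays and 0.16 without that pair, while that of PSBW was 0.33 and 0.34.

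Stability was described by the pooled SD of the normalised log2 signal within the 2 groups. It was 0.33 for PSBW, 0.44 for PSBY and 0.54 for LHB1B2, against a median of 0.53 over the 2243 probes above 0 on every array. The median was lower, at 0.36, over the brightest 10%, to which the 3 genes belong. Of those 340 probes, 42.4% had a smaller SD than PSBW, 67.9% a smaller one than PSBY and 78.8% a smaller one than LHB1B2.

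Split by group, the order of the genes changed. The SD of the normalised log2 signal of PSBW was 0.44 in psan and 0.15 in WT. For PSBY it was 0.37 in psan and 0.50 in WT, or 0.10 on WT arrays 3 to 6. For LHB1B2 it was 0.20 in psan and 0.74 in WT, or 0.095 on WT arrays 3 to 6. Without WT arrays 1 and 2 the pooled SD of LHB1B2 was 0.16, and 3.12% of the 2243 probes above 0 on every array had a smaller one. That of PSBY was then 0.29, with 20.6% of probes below it, and that of PSBW was 0.34, with 30.9% below it. With WT arrays 1 and 2 included, 18.6% of the same 2243 probes had a smaller pooled SD than PSBW. The share was then 36.8% for PSBY and 52.0% for LHB1B2. Leaving out that pair thus raised the share for PSBW and lowered it for PSBY and LHB1B2.

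For PSBW and LHB1B2 the arrays of a pair lay closer together than the pair means did. The SD between the arrays of a pair was 0.084 for PSBW and 0.046 for LHB1B2 on the normalised log2 scale, while the SD of the 3 pair means of a group, pooled over both groups, was 0.36 for PSBW and 0.60 for LHB1B2. Each pooled value rested mostly on 1 group, since the SD of the pair means of PSBW was 0.49 in psan and 0.16 in WT, and that of LHB1B2 was 0.21 in psan and 0.82 in WT. In LHB1B2 the pair of WT arrays 1 and 2 lay far from the other WT pairs. For PSBY the SD was 0.33 within pairs and 0.41 between pair means. Quantile normalisation gives probes of equal rank an equal value, so that arrays of a pair can coincide exactly. LHB1B2 did so on psan arrays 5 and 6, WT arrays 1 and 2, and WT arrays 5 and 6. Its deposited log2 values differed there by 0.089, 0.17 and 0.12. PSBW did so on psan arrays 5 and 6 and WT arrays 5 and 6, with deposited differences of 0.16 and 0.10. Such ties lower the SDs within pairs given for these genes.

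The place of each signal on its array is the same under any scaling that keeps the order of the probes. The quantile normalised values rest on the same ranks, so the place is not a separate line of evidence. PSBW was brighter than 99.3% to 99.7% of probes on the psan arrays and 99.5% to 99.6% on the WT arrays. For LHB1B2 the range was 99.2% to 99.4% on the psan arrays and 99.2% to 99.7% on the WT arrays. The highest rank of LHB1B2, 11th from the top, came on WT arrays 1 and 2. PSBY was brighter than 93.5% to 96.6% of probes on the psan arrays and 92.6% to 96.5% on the WT arrays. Such places describe the signal of a probe, not the number of transcripts, since the sources used here state no probe lengths.

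LHB1B2 needs care as a name. In the TAIR10.1 gene table its neighbour on the chromosome is LHB1B1 (AT2G34430), another Lhcb1 gene, and genes of this family are known for closely similar coding sequences. The sources used here do not hold the probe sequence, and the part of related transcripts in the signal was not tested.

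**Figure D4:**
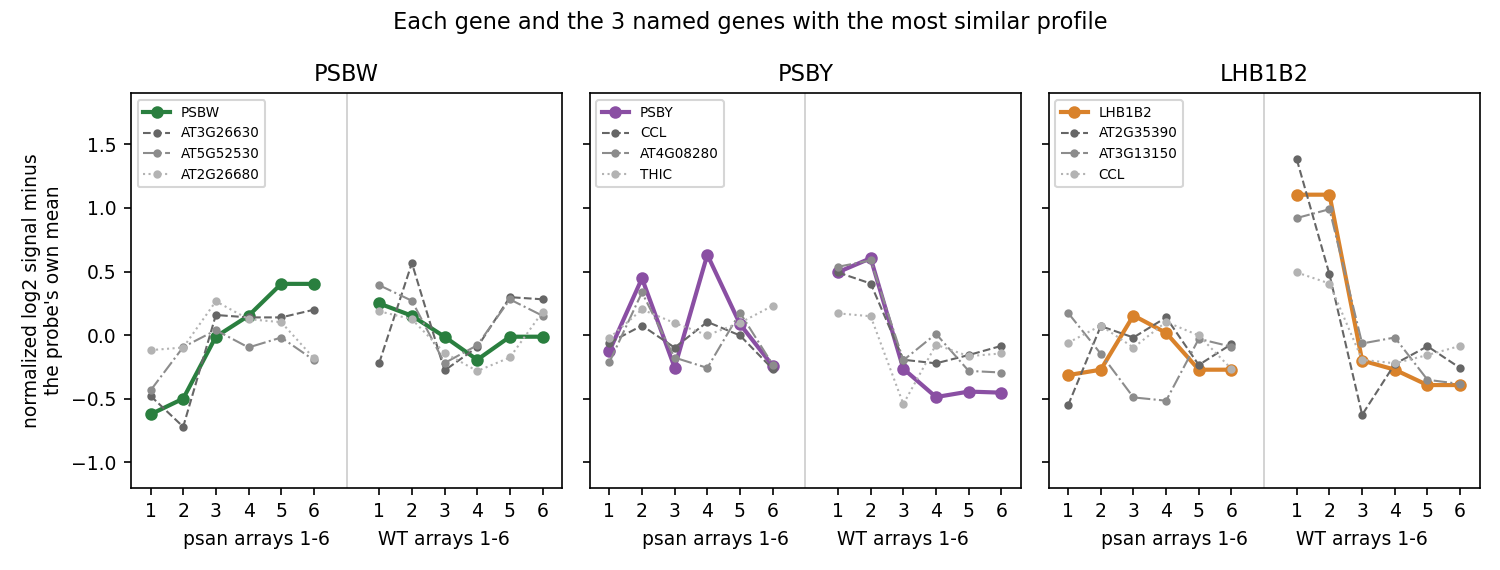
Normalised log2 signal minus the probe's own mean on each array for PSBW, PSBY and LHB1B2 (thick lines) and, for each, the 3 named genes with the smallest root mean square difference (thin lines). PSBY and LHB1B2 rise on WT arrays 1 and 2, and PSBW is lowest on psan arrays 1 and 2.

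The 3 genes did not share one profile. Likeness was measured as the root mean square difference of normalised log2 values over the 12 arrays, after each probe's own mean was taken off, among 425 other single-gene probes above 0 on every array. A probe that did not vary at all would differ from a gene by slightly less than the gene's own SD over 12 arrays. That SD was 0.32 for PSBW, 0.43 for PSBY and 0.54 for LHB1B2, so the measure also favours flat probes. PSBW and PSBY differed by 0.48, PSBW and LHB1B2 by 0.51, and PSBY and LHB1B2 by 0.40. Of the 425, LHB1B2 ranked 11th in likeness to PSBY and 75th in likeness to PSBW.

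The genes with the smallest difference from PSBW were AT3G26630, at 0.27, AT5G52530, at 0.29, and AT2G26680, at 0.29. The median was 0.76, but the SD of PSBW itself was 0.32, so these values are little below that of a flat probe. Nearest to PSBY were CCL (CCR-like, AT3G26740), at 0.26, AT4G08280, at 0.31, and THIC (AT2G29630), an enzyme of thiamine synthesis in the chloroplast, at 0.36, against a median of 0.82. LHB1B2 was most like AT2G35390, at 0.29, AT3G13150, at 0.31, and again CCL, at 0.33, against a median of 0.85. Each of these genes near LHB1B2 was highest on WT arrays 1 and 2, as LHB1B2 was. Of the genes near PSBY, CCL and AT4G08280 were highest there too, but THIC was not. How far the likeness rests on that pair was not tested. CCL had an intensity of 4.26 ± 0.298 in psan and 5.19 ± 0.928 in WT (SD, n = 6 each). Its normalised log2 fold change was -0.082 (limma adjusted p = 0.778), or adjusted p = 0.893 with averaged pairs. Without WT arrays 1 and 2 CCL had 0.13 (adjusted p = 0.558).

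Of other photosystem II and antenna genes, few were measured through a single-gene probe. In a list of 12 nuclear photosystem II subunits, 2 were, PSBW and PSBY, and in a list of 15 LHCII antenna genes, only LHB1B2 was, with 3 more on probes that carry several genes. Of 26 genes of photosystem II assembly and repair, 2 were tested, of which 1 was higher and 1 lower in psan, against 14.3% higher and 15.6% lower over all probes. PSB27, a lumen protein of assembly and repair, had intensities of 2.27 ± 0.414 in psan and 1.24 ± 0.429 in WT (SD, n = 6 each). Its log2 fold change was 0.76 (limma adjusted p = 0.0217), or adjusted p = 0.214 with averaged pairs and 0.0671 without WT arrays 1 and 2. With median centring PSB27 had 0.24 and did not pass. LPA19, a relative of PSB27 that helps to process the precursor of a reaction centre protein, had 0.322 ± 0.154 in psan and 0.796 ± 0.308 in WT. Its log2 fold change was -1.77 (limma adjusted p = 0.00211), or adjusted p = 0.0933 with averaged pairs. Without WT arrays 1 and 2 LPA19 had -1.94 (adjusted p = 0.00302). No gene of the lists of LHCII kinases and phosphatases, electron carriers, or leaf, seed and root markers had a single-gene probe, so the tissue could not be checked by markers.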

How the data were processed

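The authors deposited linear intensities, 1 for each of 3439 probes on each of 12 arrays (6 psan, 6 WT). Their scaling and the array type are unstated in the sources used here, though the highest value was 100 on each of the 12 arrays. Groups and numbers came from the sample titles. Genes were named only from the 692 probes with 1 symbol in the platform annotation, of which 690 matched a locus of the TAIR10.1 table, used for names and neighbours only.

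Arrays were quantile normalised, each array's zeros were then dropped, and the log2 signals of 3376 probes with a value in both groups were fitted with limma 3.58.1 in R 4.3.3 (lmFit, eBayes, two-sided, psan minus WT). P-values were adjusted by Benjamini-Hochberg over all probes, with a threshold of 0.05. Precision depends on the number of arrays and on the spread between them. Permutation tests used scipy 1.17.1. The genes named besides PSAN were the 3 members, list genes with a single-gene probe and, per member, the 3 most similar profiles. The members, lists, alternatives and array pairs were chosen with earlier results of these data known, and leaving out other pairs, or WT arrays 1 and 2 from the deposited values, was added after these fits were seen. Alternatives changed the scaling, zeros, dim probes, spread, blocks, pairs and arrays used.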

Additional observations from a re-analysis of the deposited data

How the results depend on the processing

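None of the 3 genes passed at an adjusted p under 0.05 in any of the limma alternatives run, 29 for each, with adjusted p from 0.0645 to 0.990 for PSBW, 0.0926 to 0.992 for PSBY and 0.0620 to 0.790 for LHB1B2. Unadjusted, the limma p was 0.0213 for PSBW and 0.0200 for LHB1B2 with median centring. For PSBY it was 0.0420 with the probe number corrected and 0.0497 without WT arrays 1 and 2. On deposited values without those arrays it was 0.0360 for PSBY, in a setting added after these fits were seen. Signs were less firm. The PSBW log2 fold change turned to 0.15 with cyclic loess, 0.42 with the probe number corrected, 0.042 without WT arrays 1 and 2 and, in settings added after seeing these fits of the data, 0.035 without them on deposited values and 0.22 without psan arrays 1 and 2. That of PSBY turned to -0.52 with median centring, as array medians differ. That of LHB1B2 turned to 0.16 with the probe number corrected, 0.16 without WT arrays 1 and 2 and 0.070 without them on deposited values. With 1 array left out, the values ran from -0.15 to 0.059 for PSBW, 0.074 to 0.31 for PSBY and -0.43 to -0.13 for LHB1B2. PSAN passed under all 29 alternatives, with -5.94 to -4.83, or -5.63 to -5.24 with 1 array left out.

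Of all probes, 1010 passed, but 145 (4.30% of those tested) did with averaged pairs and 553 with a random block for each pair. The number was 891 to 980 with 1 array left out. Averaging leaves fewer samples. The replicate block, the sample number shared across the groups, gave 894 and adjusted p of 0.890 for PSBW, 0.644 for PSBY and 0.500 for LHB1B2. Same-numbered arrays deviated together weakly at most (r from -0.155 to 0.228), and for 4 of 12 arrays the best match was the same number. The SD within groups moved to 0.48 for PSBW, 0.59 for PSBY and 0.70 for LHB1B2 with median centring, to 0.59 for PSBY with the probe number corrected, and to 0.29 for PSBY and 0.16 for LHB1B2 without WT arrays 1 and 2. With 1 array left out it ran from 0.28 to 0.35 for PSBW, 0.39 to 0.47 for PSBY and 0.45 to 0.58 for LHB1B2. The other causes were not tested. All 3 signals were above 0 on every array, and background levels are not known here. Without WT arrays 1 and 2 the SE of the LHB1B2 log2 fold change was 0.17, against 0.31 over 12 arrays, and that of PSBY was 0.22, against 0.27.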
